A study of Homo sapiens with 10 samples.

Results

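The desmosome genes described here are DSP, DSC2, DSC3, DSG2, DSG3, PKP1, PKP2, PKP3, JUP and EVPL, chosen by name as structural components of the desmosome, together with envoplakin. All 10 had a row of their own among the 23170 gene rows of each table, and 16 of the 37557 isoform rows belonged to them. RNA-seq was performed on 10 samples of PC3, an established human prostate cancer cell line that was isolated from a bone metastasis, in 4 groups. PC3-Epi (2 samples) was a luciferase-positive epithelial subpopulation chosen for light output and morphology. PC3-EMT14 (3 samples) was a mesenchymal population recovered after PC3-Epi cells had been grown with macrophages, and so descends from the same luciferase-marked cells. PC3-EMT14 cells selected after lentiviral delivery of OVOL1 gave PC3-EMT14-OVOL1 (3 samples), and those given OVOL2 gave PC3-EMT14-OVOL2 (2 samples). Both factors are zinc-finger transcription factors of epithelial cells. Each group was 1 derived line, and the control for the OVOL lines was PC3-EMT14 itself, with no empty-vector group among the labels.

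Desmosomes are spot junctions that tie the keratin filaments of neighbouring epithelial cells together. Desmogleins (DSG) and desmocollins (DSC) are cadherins that bind across the gap between cells. Their tails are held by the armadillo proteins plakoglobin (JUP) and the plakophilins (PKP), and desmoplakin (DSP), a plakin, links these to keratin. Envoplakin (EVPL) is a plakin that associates with desmosomes and enters the cornified envelope of stratified epithelia. When carcinoma cells take on a mesenchymal state, as in the epithelial-to-mesenchymal transition (EMT), they commonly lose such junctions, and the study asked how far OVOL1 and OVOL2 bring mesenchymal cells back towards the epithelial state (MET).

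Each table gave 1 pooled FPKM (fragments scaled to transcript length and to library depth, so that levels of different genes can be set side by side) per line and comparison. No SD, standard error or test could therefore be had from these values, per-sample depth is unknown, and "higher" and "lower" below are sizes without a replicate check. A gene was counted as higher or lower in a comparison when the levels differed at least 2-fold and the higher level was at least 1 FPKM. The percentile of a gene's log2 fold change is its place among all genes that reached 1 FPKM in that comparison. The tables were normalized separately, and the level of a desmosome gene in a given line differed by a factor of 1.00042 to 1.03378 between tables. Levels of the desmosome genes set side by side across lines use the PC3-EMT14 value from the table with PC3-Epi. For other genes that value is from the same table or from that of the OVOL line named beside it. Each fold change stays within its own table.

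The OVOL lines carried the factor that their labels name, and the cell type markers followed the labels in part. OVOL1 stood at 11.3 FPKM in PC3-EMT14-OVOL1 against 0.0238 in PC3-EMT14, and at 4.25 in PC3-Epi. OVOL2 stood at 831 FPKM in PC3-EMT14-OVOL2 against 0.370 in PC3-EMT14, and at 9.91 in PC3-Epi. The OVOL lines thus differed both in the factor delivered and in its transcript level, and these cannot be told apart in what follows. Of 5 epithelial markers (CDH1, EPCAM, KRT8, KRT18 and CLDN7), 5 were higher in PC3-Epi than in PC3-EMT14, 3 in the OVOL1 line and 4 in the OVOL2 line. Over all genes, 7.37%, 2.43% and 4.42% were higher in these comparisons. VIM, a mesenchymal intermediate filament, was 271 FPKM in PC3-EMT14, 183 with OVOL1 and 76.9 with OVOL2, and 42.5 in PC3-Epi. Of 5 mesenchymal markers, 4 reached 1 FPKM, of which 2 were lower in PC3-Epi, 0 with OVOL1 and 3 with OVOL2. Over all genes, 8.34%, 1.54% and 2.93% were lower. The macrophage markers PTPRC, CD14, CSF1R and CD163 were below 0.1 FPKM in every line, whereas CD68, a lysosomal protein also made by other cells, was 54.1 FPKM in PC3-EMT14 and 13.2 in PC3-Epi. Of the prostate lineage markers, TMPRSS2 was 0.967 FPKM in PC3-EMT14 and 5.50 in PC3-Epi, and KLK3 was listed at 0 in every table.

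Of the 10 desmosome genes, 9 were expressed at 1 FPKM or more in every line and DSG3 was near 0 throughout. PKP1 was the most abundant in PC3-EMT14 and both OVOL lines, and JUP and PKP1 were level with each other in PC3-Epi. The epithelial and mesenchymal lines did not differ by presence and absence of desmosome transcripts. They differed in level for DSP, JUP and PKP3, which were higher in PC3-Epi and with OVOL2, and for DSC3, which was lower in PC3-Epi. In these bulk samples, fewer cells that express a gene and less of its RNA per cell cannot be told apart.

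**Figure D1:**
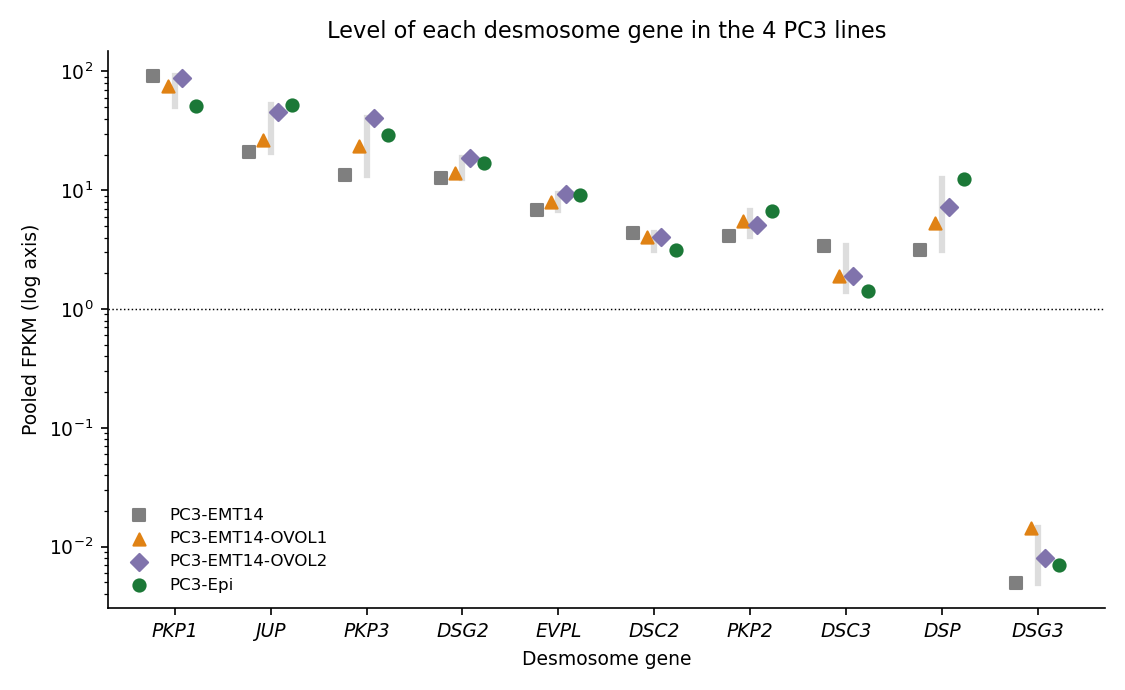
Pooled FPKM (log axis) of the 10 desmosome genes in the 4 lines, with 1 point per line and no error bar because the values are pooled; grey bars span the lowest to the highest line and the dotted line marks 1 FPKM. DSP stands at 3.13 FPKM in PC3-EMT14 and 12.5 in PC3-Epi, PKP1 at 91.5 and 51.2, and DSG3 lies far below the others in every line.

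In PC3-Epi against PC3-EMT14, 3 of the 9 expressed desmosome genes were higher (DSP, JUP and PKP3) and 1 was lower (DSC3). Over all 12441 genes that reached the floor, 7.37% were higher and 8.34% lower. The 9 genes had a median log2 fold change of 0.44, beside -0.01 over all genes, and 6 of the 9 had the higher value in PC3-Epi, beside 49.1% of all genes. At 1.5-fold, 4 were higher (with PKP2) and 2 lower (with PKP1), where 15.2% and 16.3% of all genes were. In PC3-EMT14-OVOL1 against PC3-EMT14, 0 of the 9 were higher and 0 lower, where 2.43% and 1.54% of all genes were. The median was 0.26 beside -0.0018 over all genes, and 6 of the 9 had the higher value with OVOL1, beside 49.7% of all genes. At 1.5-fold, 2 were higher (DSP and PKP3) and 1 lower (DSC3), where 4.67% and 4.12% of all genes were. In PC3-EMT14-OVOL2 against PC3-EMT14, 3 were higher (DSP, JUP and PKP3) and 0 lower, where 4.42% and 2.93% of all genes were. The median was 0.49 beside -0.04 over all genes, and 6 of the 9 had the higher value with OVOL2, beside 44% of all genes. At 1.5-fold, 4 were higher (with DSG2) and 1 lower (DSC3), where 8.12% and 6.92% of all genes were. These 3 comparisons share the PC3-EMT14 libraries, so a direction seen in each of them is not independent evidence, and the genes were not drawn at random.

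**Figure D2:**
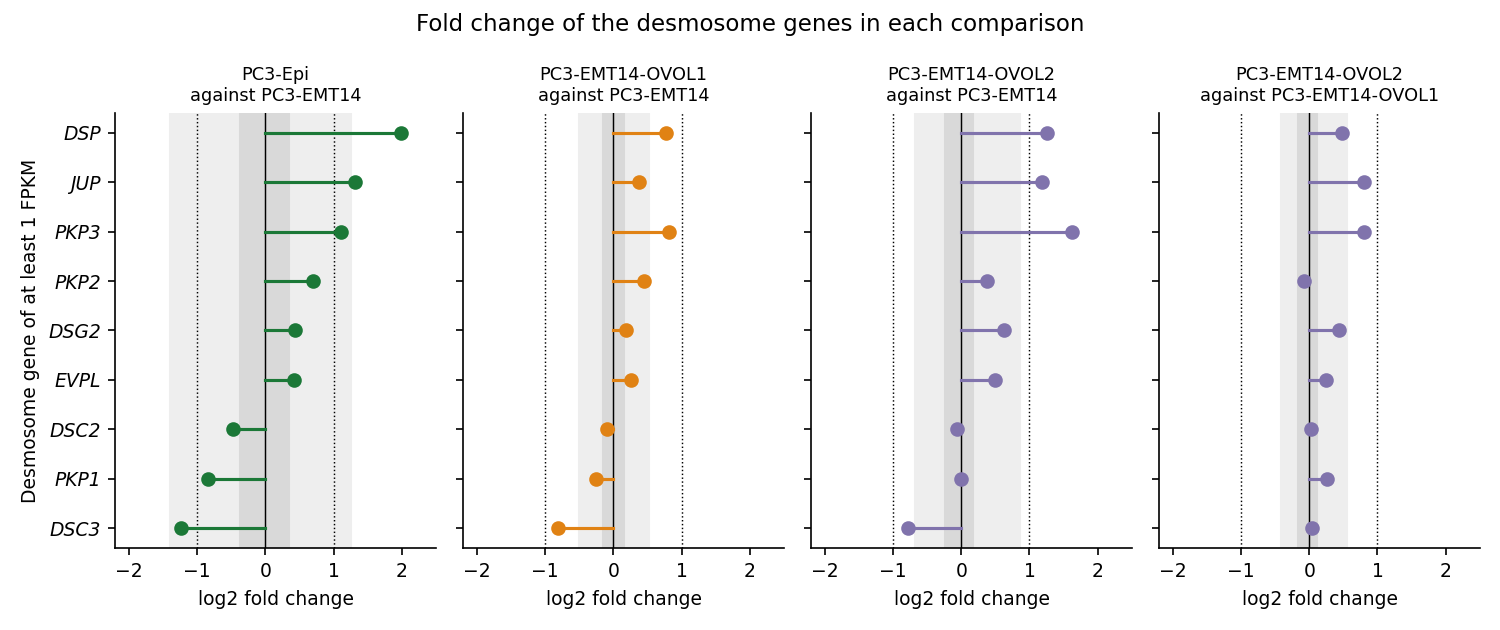
Log2 fold change of the 9 desmosome genes of at least 1 FPKM in each of the 4 comparisons (1 panel each); dark and light grey bands hold the middle quartiles (25th to 75th percentile) and the 5th to 95th percentile of all genes at the floor, and dotted lines mark 2-fold. DSP lies beyond the 95th percentile in each comparison against PC3-EMT14, at log2 1.99, 0.78 and 1.25, and DSC3 is below the 5th percentile with either OVOL factor.

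The plakins are DSP and EVPL. DSP encodes desmoplakin, without which the junction is not anchored to keratin, and lies on chromosome 6 (hg19 chr6:7541870-7586946, plus strand). DSP was 3.13 FPKM in PC3-EMT14, 5.25 with OVOL1 and 7.23 with OVOL2, and 12.5 in PC3-Epi. The 4 lines thus ran in the order mesenchymal, OVOL1, OVOL2, epithelial, with each OVOL line between the others. Within its own table DSP was 3.97-fold higher in PC3-Epi, 1.71-fold with OVOL1 and 2.38-fold with OVOL2, at percentiles 96.8, 96.7 and 96.6 of all genes. On the log2 scale the OVOL1 line covered 38.9% and the OVOL2 line 62.9% of the difference between PC3-EMT14 and PC3-Epi. EVPL (chr17:74002927-74023507, minus strand) encodes envoplakin and varied less. It was 6.81 FPKM in PC3-EMT14, 7.95 with OVOL1, 9.10 in PC3-Epi and 9.27 with OVOL2, which is 1.34-, 1.19- and 1.41-fold above PC3-EMT14 in PC3-Epi and the OVOL1 and OVOL2 lines. None of these passed 2-fold, and OVOL2 and PC3-Epi stood within 1.05-fold of each other. DSP was the lesser of the pair in PC3-EMT14, at 0.460 of the EVPL level, and the greater in PC3-Epi, at 1.37 times that level, with 0.661 and 0.780 in the OVOL1 and OVOL2 lines.

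JUP and the plakophilins connect the cadherin tails with desmoplakin. JUP (chr17:39910859-39942964, minus strand), which encodes plakoglobin and is shared between desmosomes and adherens junctions, was 20.9 FPKM in PC3-EMT14, 26.6 with OVOL1 and 46.0 with OVOL2, and 51.8 in PC3-Epi. PC3-Epi and the OVOL2 line were near each other and the OVOL1 line was near PC3-EMT14. JUP was 2.48-fold higher in PC3-Epi, 2.27-fold with OVOL2 and 1.30-fold with OVOL1, at percentiles 94.97, 96.3 and 91.2. The OVOL2 line covered 90.5% of the log2 difference between PC3-EMT14 and PC3-Epi, and the OVOL1 line 28.9%.

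PKP3 (chr11:394217-404908, plus strand), a plakophilin of simple and stratified epithelia alike, was 13.5 FPKM in PC3-EMT14, 23.4 with OVOL1, 29.1 in PC3-Epi and 40.2 with OVOL2. Here the OVOL2 line, and not PC3-Epi, was the highest. PKP3 was 3.08-fold higher with OVOL2, 2.15-fold in PC3-Epi and 1.77-fold with OVOL1, at percentiles 97.5, 93.6 and 97.0. It was the only one of the 10 genes past 2-fold whose OVOL2 difference exceeded that of PC3-Epi, at 147% of it on the log2 scale. PKP2 (chr12:32943680-33049780, minus strand) encodes the plakophilin of simple epithelia and heart muscle. It was 4.10 FPKM in PC3-EMT14, 5.14 with OVOL2, 5.50 with OVOL1 and 6.68 in PC3-Epi, or 1.30-, 1.37- and 1.63-fold above PC3-EMT14. PKP2 passed 2-fold in no comparison and was the one expressed desmosome gene with a lower value in the OVOL2 than in the OVOL1 line.

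PKP1 (chr1:201252580-201302121, plus strand), the plakophilin best known from stratified epithelia, was the most abundant plakophilin in every line. It was 91.5 FPKM in PC3-EMT14, 88.3 with OVOL2, 74.9 with OVOL1 and 51.2 in PC3-Epi. PKP1 was 1.79-fold lower in PC3-Epi, at percentile 10.5, and 1.20-fold lower with OVOL1, at percentile 15.2, neither past 2-fold. With OVOL2 its levels in the shared table were 88.3 and 88.6 FPKM, and this difference changes sign when the fold changes are centred on the median of all genes (log2 of 0.04). In units of level, PKP1 stood 40.3 FPKM lower in PC3-Epi than in PC3-EMT14, against 30.9 FPKM higher for JUP and 15.6 FPKM higher for PKP3.

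Of the desmosomal cadherins, DSC3 passed 2-fold, in PC3-Epi against PC3-EMT14. All 4 cadherin genes lie on chromosome 18 between positions 28570052 and 29128814, with DSC3 and DSC2 on the minus strand and DSG3 and DSG2 on the plus strand. DSG2 (chr18:29078027-29128814), the desmoglein of simple epithelia, was 12.6 FPKM in PC3-EMT14, 13.99 with OVOL1, 17.1 in PC3-Epi and 18.8 with OVOL2. It was higher by 1.36-fold in PC3-Epi, by 1.14-fold with OVOL1 and by 1.54-fold with OVOL2, so none passed 2-fold. DSG3 (chr18:29027732-29058665), a desmoglein of the basal layers of stratified epithelia, was 0.00498 FPKM in PC3-EMT14, 0.0142 with OVOL1 and 0.00796 with OVOL2, and 0.00695 in PC3-Epi. These values lie far under the floor of 1 FPKM, and no fold change is read from them.

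DSC2 (chr18:28645942-28682388), the most widely expressed desmocollin, was 4.37 FPKM in PC3-EMT14, 4.05 with OVOL2, 4.03 with OVOL1 and 3.16 in PC3-Epi. It was 1.38-fold lower in PC3-Epi and within 1.06-fold of PC3-EMT14 in both OVOL lines. DSC3 (chr18:28570052-28622781), a desmocollin of basal epithelial cells, was 3.37 FPKM in PC3-EMT14, 1.91 with OVOL2, 1.88 with OVOL1 and 1.43 in PC3-Epi. Its highest level was thus in the mesenchymal line, with both OVOL lines near each other and nearer to PC3-Epi. DSC3 was 2.36-fold lower in PC3-Epi, 1.75-fold with OVOL1 and 1.71-fold with OVOL2, at percentiles 6.39, 2.40 and 4.40 of all genes. The OVOL lines covered 65.5% (OVOL1) and 62.8% (OVOL2) of the log2 difference between PC3-EMT14 and PC3-Epi. With 1 FPKM added to both levels, its log2 difference in PC3-Epi was -0.85, so DSC3 no longer passed 2-fold.

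Within each family the share of single genes differed between the lines. The summed level of the 4 cadherins was 20.3 FPKM in PC3-EMT14, 19.9 with OVOL1 and 24.8 with OVOL2, and 21.7 in PC3-Epi. DSG2 made up 61.9% of it in PC3-EMT14, 70.2% with OVOL1 and 75.9% with OVOL2, and 78.8% in PC3-Epi. DSC3 made up 16.6%, 9.46%, 7.70% and 6.60% in the same order, and DSC2 21.5%, 20.2%, 16.3% and 14.6%. Among the 3 plakophilins, PKP1 held 83.9% of the sum in PC3-EMT14, 72.2% with OVOL1 and 66.1% with OVOL2, and 58.9% in PC3-Epi. PKP3 held 12.4%, 22.5%, 30.1% and 33.4% in that order, whereas PKP2 stayed between 3.75% and 7.68%. The transcript ratio of JUP to PKP1 was 0.229 in PC3-EMT14, 0.355 with OVOL1 and 0.521 with OVOL2, and 1.01 in PC3-Epi. The sum over all 10 genes was 160 FPKM in PC3-EMT14, 164 with OVOL1, 182 in PC3-Epi and 221 with OVOL2, so the line with the highest sum was not the epithelial one. Each share comes from 1 table, whereas the sums are set across separately normalized tables.

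**Figure D3:**
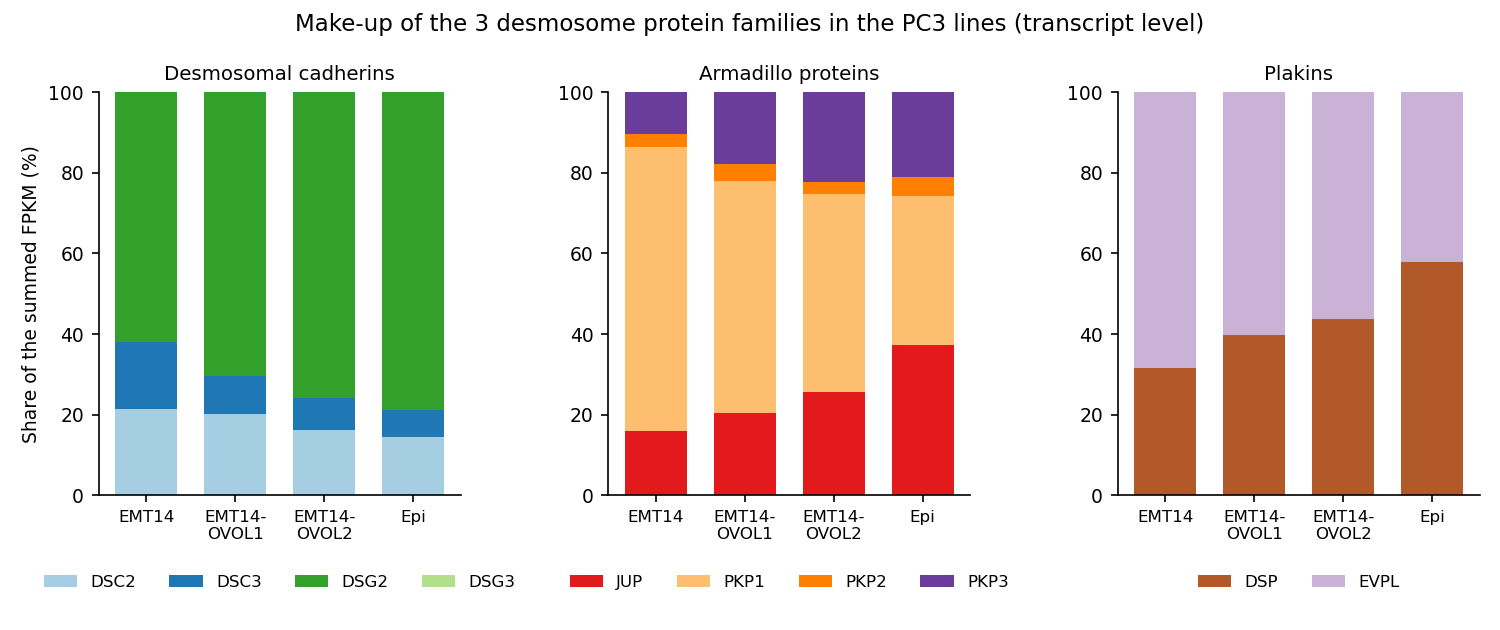
Stacked bars of each gene's share (%, axis from 0 to 100) of the summed FPKM of the desmosomal cadherins, armadillo proteins and plakins in the 4 lines. From PC3-EMT14 to PC3-Epi the share goes from 61.9% to 78.8% for DSG2 among the cadherins, from 16.1% to 37.4% for JUP among the armadillo proteins and from 31.5% to 57.8% for DSP among the plakins, with the OVOL1 and OVOL2 lines in between.

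PC3-EMT14-OVOL2 against PC3-EMT14-OVOL1 was compared in a table of its own. None of the 9 expressed genes reached 2-fold, where 1.9% of all 12188 genes were higher and 1.17% lower with OVOL2. JUP and PKP3 came nearest, at 46.0 against 26.3 FPKM (1.75-fold, percentile 97.2) and 40.2 against 23.1 FPKM (1.74-fold, percentile 97.1). These were the 2 genes past 1.5-fold, where 4.74% of all genes were higher by that much, and 0 were lower by it, where 2.72% of all genes were. DSP was 1.39-fold and DSG2 1.36-fold higher with OVOL2, at percentiles 93.6 and 92.9. PKP1 and EVPL were 1.19- and 1.18-fold higher. DSC2, DSC3 and PKP2 each differed by less than 1.06-fold between the OVOL lines. The value with OVOL2 was the higher in 8 of the 9 genes, beside 42.5% of all genes, with a median log2 fold change of 0.25 beside -0.04.

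Isoform rows carry no transcript accession, so the exons that set them apart are not given here. Of the 16 isoform rows, 13 reached 1 FPKM in PC3-Epi against PC3-EMT14, with 4 higher and 1 lower by 2-fold, where 9.03% and 9.95% of all isoforms were. With OVOL1, 0 of 13 were higher and 1 lower (the first of DSC3), beside 3.17% and 2.48%, and with OVOL2, 4 of 13 were higher and 0 lower, beside 5.49% and 4.59%. In the JUP gene the first isoform was 9.39 FPKM in PC3-EMT14 and 33.9 in PC3-Epi, a 3.61-fold difference, and the second was 11.5 and 17.9 FPKM, a 1.55-fold difference. The first isoform accounted for 44.9% of JUP in PC3-EMT14, 52.5% with OVOL1 and 53.0% with OVOL2, and 65.5% in PC3-Epi. The JUP difference was 20.6 points between PC3-EMT14 and PC3-Epi, and 19.3% of genes with several isoforms had a share that differed by 10 points or more. The largest share difference of such genes had a median of 3.48 points and a 90th percentile of 15.6 points. With OVOL2, where the JUP gene level came near that of PC3-Epi, the isoform levels of 24.4 and 21.6 FPKM were nearly even.

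Both isoforms of DSP were higher in PC3-Epi by about the same factor, at 4.04- and 3.93-fold, and their shares in the 4 lines lay within 4.65 points of PC3-EMT14. In DSC3 the first isoform made up 42.6% in PC3-EMT14, 32.2% with OVOL1 and 46.3% with OVOL2, and 51.7% in PC3-Epi. The OVOL lines thus had nearly the same DSC3 gene level with isoform shares that lay 14.1 points apart, where 13.7% of genes with several isoforms differed by 10 points or more between these lines. The levels behind that difference are low, between 0.600 and 1.26 FPKM. PKP1 and PKP2 each had a minor isoform under the floor in every line, and DSG2, DSG3, PKP3 and EVPL had 1 isoform row.

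**Figure D4:**
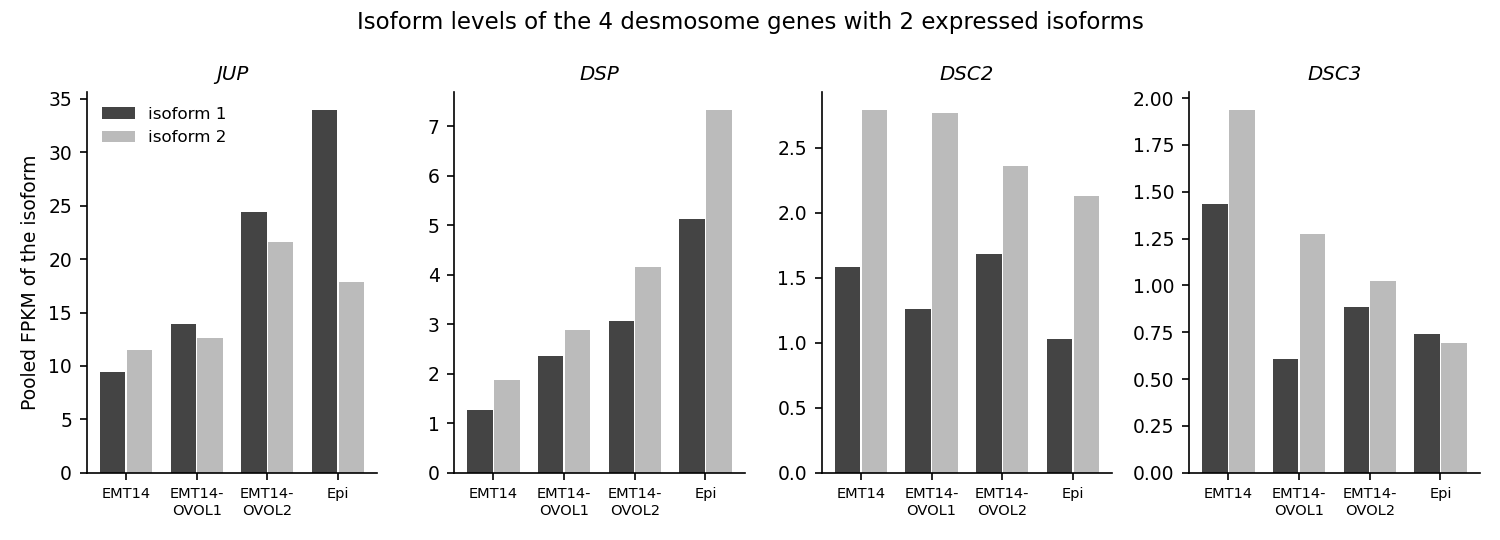
Pooled FPKM of the 2 isoform rows of JUP, DSP, DSC2 and DSC3 in the 4 lines (bars from 0, with a scale of its own for each gene, no error bars because the values are pooled). The first JUP isoform reaches 33.9 FPKM in PC3-Epi against 17.9 for the second, whereas the DSP isoforms are 4.04- and 3.93-fold higher there than in PC3-EMT14.

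Expressed genes around the desmosome loci were read as a view of the wider region. In PC3-Epi against PC3-EMT14, the 7 expressed neighbours of DSP within 1 Mb had a median log2 fold change of -0.14, beside 1.99 for DSP. The 31 neighbours of JUP had a median of -0.13, beside 1.31 for JUP, and the 38 of PKP3 had -0.12, beside 1.11. The 15 neighbours of PKP1 had a median of 0.37, beside -0.84 for PKP1. An annotated gene on the other strand overlaps DSP, DSC2, DSG2 and PKP2. Since strand was not stated for the libraries, reads from the 2 strands cannot be told apart at those loci.

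Promoter sequence was read because DSP and JUP were higher in the same lines. The 300-base windows, from 250 bases before the gene's start to 50 after it, were taken from RefSeq (GRCh38.p14) and matched 7 of the 10 genes by symbol. PKP2, PKP3 and EVPL were not among them. Motifs were read on both strands. CACCTG is the E-box form bound by the EMT factors of the ZEB and SNAI families, and CAGGTA is a further ZEB form. CCGTTA is a core reported for OVOL proteins, and CANNTG is any E-box, which includes CACCTG. The OVOL2 consensus used by the study also allows A in place of the first C and T in place of the second. Those forms were not searched. The windows below show the 3 genes with CACCTG (DSP, DSG2 and DSC2) and, for contrast, JUP without it, each written 5′ to 3′ on the gene's strand, with CACCTG or its reverse complement in capitals. They are chr6:7541421-7541720 (plus strand) for DSP, chr18:31497927-31498226 (plus) for DSG2, chr18:31102372-31102671 (minus) for DSC2 and chr17:41786662-41786961 (minus) for JUP.
DSP: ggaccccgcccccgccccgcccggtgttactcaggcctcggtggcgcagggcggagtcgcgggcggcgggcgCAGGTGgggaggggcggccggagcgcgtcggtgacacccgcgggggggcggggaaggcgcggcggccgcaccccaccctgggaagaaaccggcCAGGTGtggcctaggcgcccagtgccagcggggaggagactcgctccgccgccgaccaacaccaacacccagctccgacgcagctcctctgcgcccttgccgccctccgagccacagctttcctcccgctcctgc
DSG2: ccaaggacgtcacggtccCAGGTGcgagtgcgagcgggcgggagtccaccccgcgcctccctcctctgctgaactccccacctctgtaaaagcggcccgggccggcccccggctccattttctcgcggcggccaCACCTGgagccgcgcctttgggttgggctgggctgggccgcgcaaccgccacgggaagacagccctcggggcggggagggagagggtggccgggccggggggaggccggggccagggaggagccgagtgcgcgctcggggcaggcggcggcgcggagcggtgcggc
DSC2: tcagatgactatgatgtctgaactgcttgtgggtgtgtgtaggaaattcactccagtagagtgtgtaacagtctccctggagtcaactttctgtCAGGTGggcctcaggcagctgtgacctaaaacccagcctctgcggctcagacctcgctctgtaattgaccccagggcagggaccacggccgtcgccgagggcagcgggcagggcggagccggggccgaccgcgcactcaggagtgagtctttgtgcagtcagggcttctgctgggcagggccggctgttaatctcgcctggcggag
JUP: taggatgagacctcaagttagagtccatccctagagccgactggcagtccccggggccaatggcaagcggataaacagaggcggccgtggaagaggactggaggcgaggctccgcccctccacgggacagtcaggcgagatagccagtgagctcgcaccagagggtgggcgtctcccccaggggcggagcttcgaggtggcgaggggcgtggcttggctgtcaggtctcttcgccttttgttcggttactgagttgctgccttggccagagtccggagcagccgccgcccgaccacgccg

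CACCTG was present in 3 of the 7 windows, against 20.6% of 27305 promoters of the same length. In DSP it began 178 and 85 bases before the gene's start, in DSG2 232 and 116 bases before and in DSC2 156 bases before. Of the genes past 2-fold in PC3-Epi, DSP (3.97-fold higher) held 2 matches, and JUP (2.48-fold higher) and DSC3 (2.36-fold lower) held 0. DSG2 and DSC2, with 2 matches and 1, did not pass 2-fold. CAGGTA was present in 1 window, that of DSG3, against 9.68% of promoters, CCGTTA in 0 against 3.15%, and CANNTG in 5 against 68.9%. The DSP and DSG2 windows were 77% and 76.7% G and C, at percentiles 93.8 and 93.4 of all promoters, and JUP was at 65.3%. The count for CCGTTA does not cover the other core forms that the OVOL2 consensus allows. A match describes these letters only and no binding was measured.

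The remaining desmosomal genes passed 2-fold in 1 case. Of the 9 other desmosomal genes, 8 had a row, and 5 of these reached the floor in PC3-Epi against PC3-EMT14. Of these 1 was higher (CDSN, a cornified envelope adhesion protein, 1.53 FPKM in PC3-Epi and 0.370 in PC3-EMT14) and 0 were lower. PPL, which encodes periplakin, the partner of envoplakin, was 5.78 FPKM in PC3-EMT14 and 11.1 in PC3-Epi, and PKP4 was 8.44 and 15.4. PERP, a tetraspan membrane protein of desmosomes, was 29.5 FPKM in PC3-EMT14 and 43.6 in PC3-Epi. All 5 genes at the floor had the higher value in PC3-Epi, 4 of them by at least 1.5-fold, where 15.2% of all genes were. Their median log2 fold change was 0.87 there, beside -0.01 over all genes and 0.44 for the desmosome genes. The medians were 0.24 with OVOL1 and 0.17 with OVOL2. With either OVOL factor, 0 of the 4 genes at the floor were higher or lower, and PPL was 7.35 with OVOL1 and 8.21 with OVOL2. DSC1, DSG1 and DSG4, cadherins of differentiated epidermis and hair, were under 0.04 FPKM in every line.

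Keratins are the filaments to which desmosomes are tied. Of the 9 keratins listed, 6 reached the floor, and 4 were higher in PC3-Epi, 2 with OVOL1 and 3 with OVOL2, with 0 lower. By the same rule, 7.37%, 2.43% and 4.42% of all genes were higher in these comparisons. KRT8 and KRT18, the pair of simple epithelia, were 87.7 and 117 FPKM in PC3-EMT14 and 296 and 351 in PC3-Epi. KRT7 was 246 FPKM in PC3-EMT14 and 779 in PC3-Epi. KRT19, the most abundant of the listed keratins in PC3-EMT14 and both OVOL lines, was 671 FPKM in PC3-EMT14 and 742 in PC3-Epi. It was 608 FPKM with OVOL1 and 862 with OVOL2, and passed 2-fold in none of these comparisons. KRT15 was 29.3 FPKM in PC3-EMT14 and 64.7 with OVOL1, against 56.9 in PC3-Epi. KRT6A was 1.15 FPKM in PC3-EMT14 and 25.1 with OVOL2, above the 4.26 of PC3-Epi. The medians of the keratins were log2 1.62 in PC3-Epi, 0.68 with OVOL1 and 1.23 with OVOL2, beside 0.44, 0.26 and 0.49 for the desmosome genes. No test compared the lists.

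Hemidesmosomes fix keratin to the basement membrane. Of 6 hemidesmosome genes at the floor, 0 were higher in PC3-Epi, 1 with OVOL1 and 2 with OVOL2, with 0 lower. In these comparisons, 7.37%, 2.43% and 4.42% of all genes were higher and 8.34%, 1.54% and 2.93% lower. Short of 2-fold, 5 of the 6 had the lower value in PC3-Epi and 1 (ITGB4) the higher. Their median log2 fold change in PC3-Epi was -0.64, beside -0.01 over all genes, 0.44 for the desmosome genes and 1.62 for the keratins. PLEC was 1.82-fold, ITGA6 1.71-fold and CD151 1.65-fold lower there. The hemidesmosome medians were -0.08 with OVOL1 and 0.15 with OVOL2. ITGB4, the integrin subunit of this junction, was 98.3 FPKM in PC3-EMT14 and 269 with OVOL2, against 125 in PC3-Epi, and COL17A1 was 1.57 and 7.98 FPKM, against 1.11 in PC3-Epi. Of the 6 other plakins, PLEC and DST are also among the hemidesmosome genes and PPL is among the other desmosomal genes. In PC3-Epi against PC3-EMT14, 5 reached the floor, with EPPK1 higher (1.84 against 0.0321 FPKM) and MACF1 lower (6.10 against 14.1 FPKM). With OVOL1, 0 of 4 passed, and with OVOL2 1 of 5 did, EPPK1 at 1.07 FPKM.

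Adherens junctions share JUP with the desmosome. Of 7 adherens junction genes, 6 reached the floor, and 2 (CDH1 and CDH3) were higher in each comparison against PC3-EMT14, with 0 lower. Over all genes, 7.37% were higher in PC3-Epi, 2.43% with OVOL1 and 4.42% with OVOL2. CDH1, which encodes E-cadherin, was 1.00 FPKM in PC3-EMT14, 16.2 with OVOL1 and 39.2 with OVOL2, and 50.6 in PC3-Epi, a 50.4-fold difference between the outer lines where DSP, the desmosome gene that differed most, had 3.97-fold. CTNNB1, the close relative of JUP, stood at 97.9 FPKM in PC3-EMT14 and 98.2 in PC3-Epi. CTNNA1 was below 0.3 FPKM in every line.

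**Figure D5:**
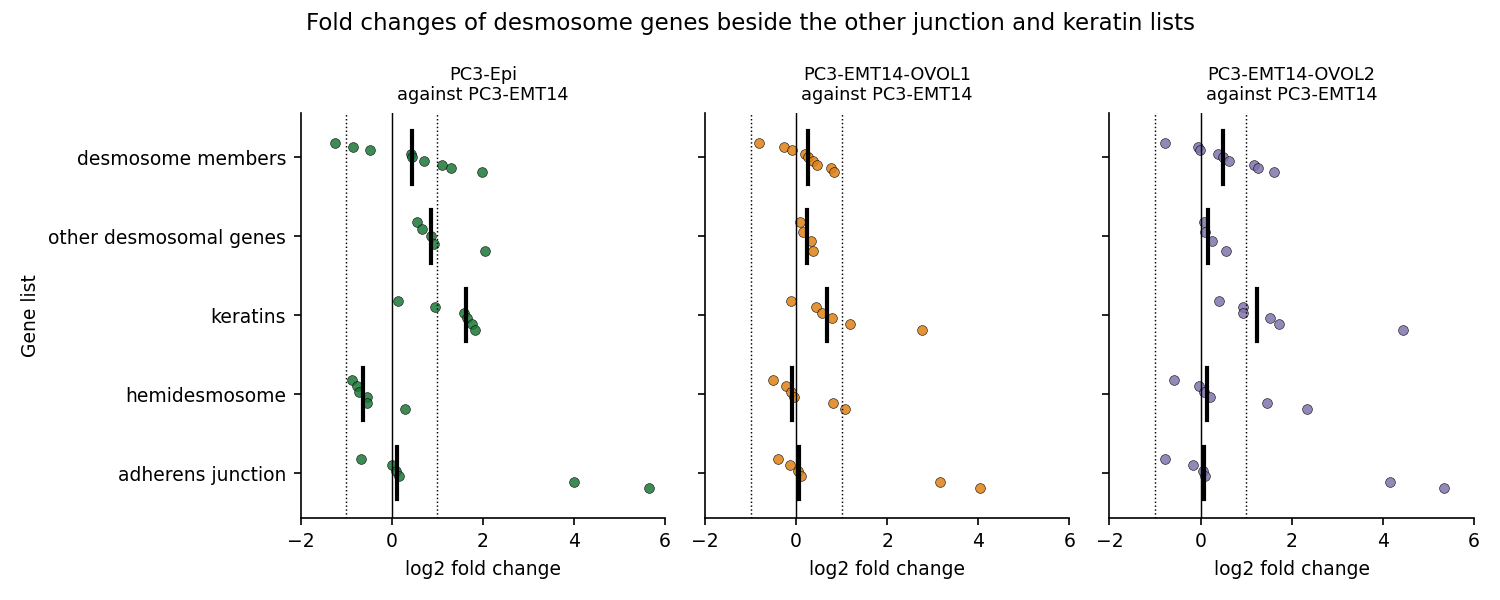
Log2 fold change of each gene of at least 1 FPKM in the desmosome genes and 4 related lists, for the 3 comparisons against PC3-EMT14; black bars are list medians and dotted lines mark 2-fold. The desmosome medians are 0.44, 0.26 and 0.49 and the keratin medians 1.62, 0.68 and 1.23, while CDH1 and CDH3 stand alone at the right of the adherens junction genes.

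The genes most like DSP and JUP in their differences from PC3-EMT14 were sought among 12634 genes of at least 1 FPKM in any line, by the Euclidean distance over the 3 log2(FPKM + 0.1) values. For DSP these were DTX4, MCOLN3, AZGP1, VDR and GALNT3, at distances of 0.0871 to 0.261. For JUP they were ACOT4, CXCL5, BEX2, the shared row of C11orf52 and HSPB2, and C14orf181, at distances of 0.0864 to 0.191. The nearest desmosome gene to DSP was JUP, at rank 136, and the nearest to JUP was PKP3, at rank 193. Among all expressed desmosome genes this rank ran from 23 (EVPL, from DSG2) to 3117 (PKP1, from DSC2). The likeness is over 4 pooled values per gene.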

How the data were processed

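RNA-seq had been run on RNA from 10 samples of 4 PC3 lines, which were grouped by their labels. The authors aligned paired-end reads with TopHat to UCSC hg19 and ran Cuffdiff on pairs of lines with upper-quartile normalization, normalization to compatible hits, and correction for multiply mapped reads and sequence bias. The deposited FPKM values are 1 pooled estimate per line, gene or isoform, and comparison, in 8 tables (1 of genes and 1 of isoforms per comparison, for 4 comparisons). A further 5 columns per table hold the authors' fold change, test statistic, p-value, q-value and call, and were not used. Depth per sample is unknown and the pooled values carry no replicate error, so no test was run. Whether the samples were separate cultures is not stated in the labels, and the paper describes the samples of each line as biological replicates.

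Fold changes were computed from the deposited FPKM in Python 3.11.15 with numpy 2.4.6 and pandas 2.3.3 (plots with matplotlib 3.10.9), with no pseudocount. A gene or isoform counted as higher or lower at 2-fold or more with at least 1 FPKM in the higher line, and the share of all genes called by the same rule was computed beside it. The text names all 10 desmosome genes, some genes of each related list, OVOL1 and OVOL2, and the 5 genes nearest to DSP and JUP. Some list genes with high levels that did not pass 2-fold, such as PNN and CTNND1, are given without values. KAZN, of the other desmosomal genes, had no row under that symbol. The desmosome genes, the lists and the rules were chosen with earlier results of these data known. The deposited status of PLEC was a failed test in every table, and of DSG3 no test, and only 1 alternative used the status. Loci on hg19 were set against the GENCODE annotation of that assembly. Alternatives were other fold thresholds, floors and pseudocounts, centring on the median gene, summed isoform values, status OK only and the indirect comparison of the OVOL lines. One marker gene is not reported here.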

Additional observations from a re-analysis of the deposited data

How the results depend on the processing

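Medians and fold changes kept their direction under each alternative that was run, except PKP1 with OVOL2 (log2 of 0.04 after centring on the median gene). Over 96 values that answer a comparison, 85 stayed and 11 counts moved by more than 1.5 times; of 262 values for single genes 6 moved, all of DSG3 with a pseudocount. At a 1.5-fold threshold, 2 desmosome genes were lower in PC3-Epi, 2 were higher and 1 lower with OVOL1, 1 was lower with OVOL2, and 2 were higher with OVOL2 than with OVOL1. At 4-fold, 0 were higher and 0 lower in PC3-Epi and 0 higher with OVOL2. DSC3 left the lower count in PC3-Epi, which became 0, with a floor of 5 FPKM or a pseudocount of 1 FPKM. With no floor, 1 gene (DSG3) was higher with OVOL1. Leaving out a replicate could not be run, as values are pooled. No paired analysis was possible because the deposited columns hold 1 value per line and no replicate number. The unknown depth limits what can be read from values under 1 FPKM, such as DSG3.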
